A study of Homo sapiens with 14 samples.

Results

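The untreated state of NT2 cells was described from the 2 day 0 libraries of a series of 14, set against the 12 libraries of treated cells. A gene stood above the treated libraries where its lower untreated value exceeded all 12 treated values, and below them where its higher untreated value was under all 12. Of 19142 genes with enough reads to be tested, 2813 (14.7%) stood above and 2509 (13.1%) stood below. These genes were chosen by their own values, so the 2 counts are a description. With edgeR's quasi-likelihood test at an adjusted p under 0.05, 4225 genes (22.1%) were called higher in untreated cells and 3891 (20.3%) lower, 42.4% of the genes in all.

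NT2 is an established human line of embryonal carcinoma cells, the stem cells of a germ cell tumour, which resemble the pluripotent cells of the early embryo. In such cells the transcription factors POU5F1 (OCT4), SOX2 and NANOG hold genes of self-renewal active and genes of differentiated fates silent. LIN28A, an RNA-binding protein, keeps the let-7 microRNAs from maturing, and TDGF1 (Cripto) is a coreceptor for NODAL, a signal on which human pluripotent cells depend.

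Every library came from NT2 cells grown in the same serum-containing medium. The untreated group was taken at day 0 with no treatment. The treated groups received all-trans retinoic acid (RA) at a final 10 µM, given in the labels as the neuron-inducing treatment, or bone morphogenetic protein 2 (BMP2), given as the muscle-inducing one. Each was sampled at days 5, 10 and 21, with 2 libraries per group. The labels name a first and a later BMP2 dose without tying either to a library, and cultures given the DMSO vehicle were not analysed here. Every contrast with day 0 therefore mixes the factor with the days spent in culture. Nothing in the labels tells if paired libraries were grown as separate cultures, and the p-values reflect the spread among these 14 libraries, which may be technical. In bulk RNA, fewer cells with a transcript and less of it per cell cannot be told apart.

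Total counts were 50475226 and 75754396 in the untreated libraries, within a range of 45773278 to 75754396 over the series. Levels below are CPM, read counts scaled to library size with TMM factors. Across genes, the log-scale profiles of the untreated libraries correlated at 0.98, and with RA day 5 replicate 2, the nearest treated library to both, at 0.945 and 0.942. The lowest correlation with a treated library was 0.836. The 2 BMP2 day 10 libraries stood apart from each other: POU5F1 was at 109.7 CPM in replicate 1 and 1.52 CPM in replicate 2. Without both of them 2965 genes stood above and 2702 below, and 4582 and 4677 were called. Their omission moved the number of genes called on the prevailing side of each list described below by at most 2. A log2 difference below is the untreated level minus the mean of the 6 treated groups on the log2 scale, from edgeR, with its SE. When the treated libraries were fitted as 1 group, whose spread then includes the differences between treatments and days, 1430 genes were called higher and 1391 lower. This fit is called the 2-group fit below.

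The defining markers were high in both untreated libraries. POU5F1 measured 1011 and 1006 CPM in untreated cells, against 0.296, 29.5 and 164.2 CPM as the lowest, median and highest of the treated libraries. LIN28A measured 2536 and 3050 CPM, against 1.85, 352.8 and 1637 CPM. TDGF1 measured 337.2 and 371.0 CPM, against 0.404, 3.09 and 20.6 CPM. For all of these the highest treated library was RA day 5 replicate 2, and the lowest was RA day 21 replicate 2, so no treated library reached the untreated range. The log2 differences were 5.90 ± 0.68 for POU5F1, 4.73 ± 0.76 for LIN28A and 6.85 ± 0.33 for TDGF1, with adjusted p of 0.000171, 0.00092 and 3.69e-06 in edgeR. In the 2-group fit the difference of LIN28A was 2.72 and its call was lost (adjusted p = 0.221). Most of the TDGF1 gene model (86.8%) overlaps another gene, whose reads cannot be told apart from its own where counting ignores strand. The same holds, for more than 50% of the gene model, for SOX2, FOXD3, GLIPR1L1, LDHB, LEFTY1, XPC, ACTA2, MYL9, WLS, ZNF503 and SNAP25 among the genes named below.

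SOX2 measured 314.5 and 304.5 CPM in untreated cells and between 3.86 and 218.0 CPM (median 23.5) in treated ones. NANOG measured 220.0 and 278.9 CPM, against 0.0539 to 19.1 CPM (median 8.82). DPPA4, a nuclear protein of pluripotent cells, measured 1008 and 1072 CPM, against 134.0 to 308.1 CPM (median 157.1). The untreated values of all of these lay above the treated range, by a narrow step for SOX2 and a wide one for NANOG and DPPA4. SOX17, an endoderm factor that also marks seminoma and not embryonal carcinoma, had 0 counts in both untreated libraries. TNFRSF8 (CD30), the surface receptor used to diagnose embryonal carcinoma, measured 62.0 and 61.5 CPM and no more than 4.02 CPM after treatment.

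**Figure D1:**
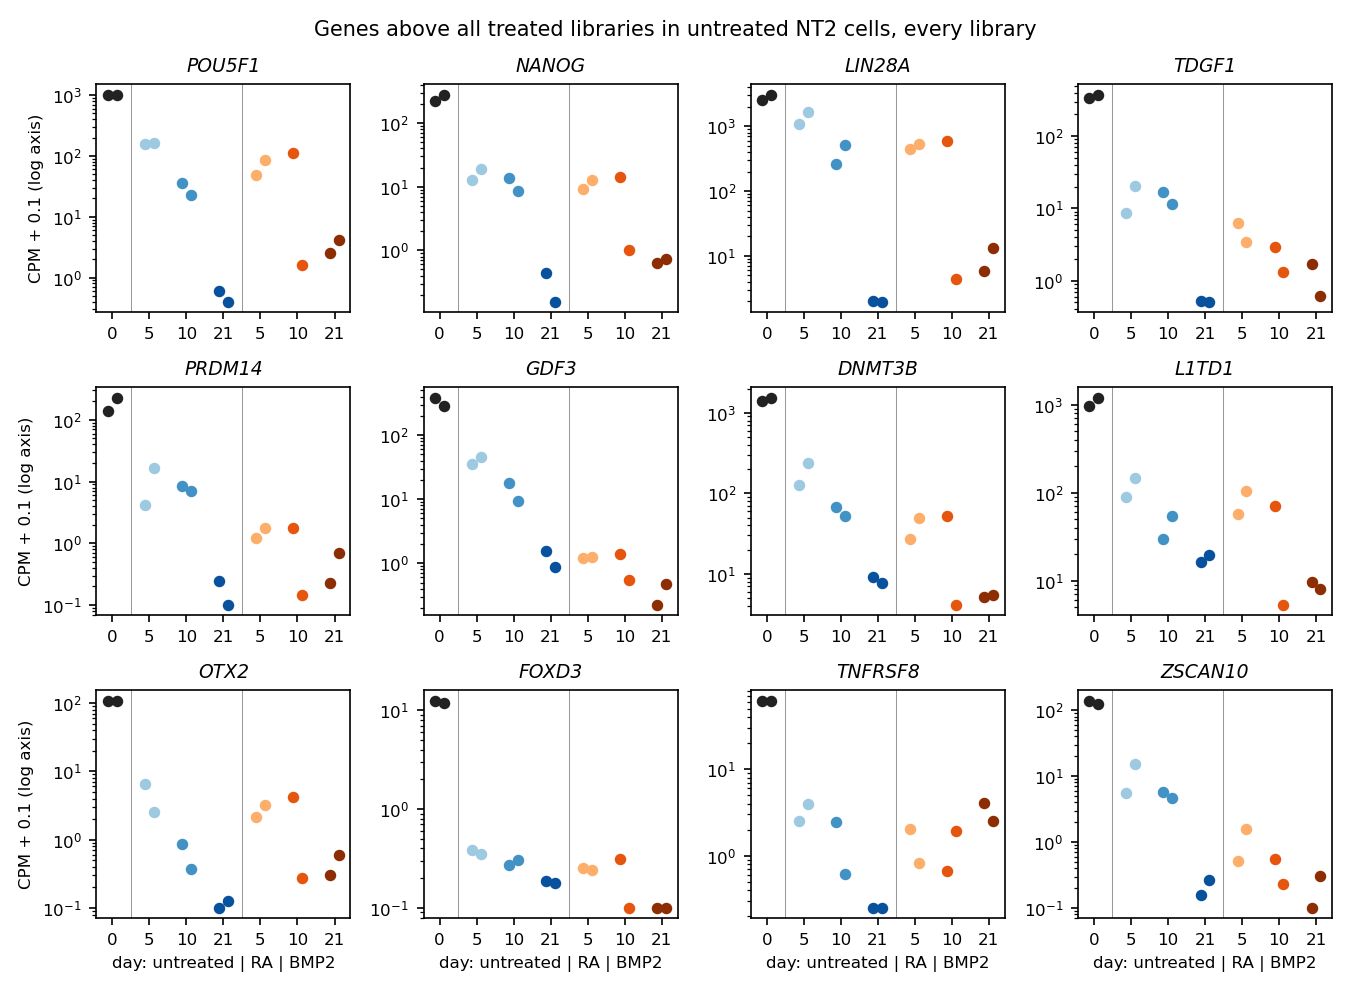
Each panel shows one gene in all 14 libraries, as CPM plus 0.1 on a log axis, with the day on the horizontal axis and one point per library (black untreated, blue RA, orange BMP2). Both untreated points lie above every treated point in all 12 panels, and POU5F1 in BMP2 day 10 lies at 109.7 CPM in replicate 1 and 1.52 CPM in replicate 2.

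Of 22 core pluripotency factors, 21 (95.5%) were higher in untreated cells and 0 lower, with 17 above all treated libraries and a median log2 difference of 3.62. The median over all genes tested was -0.05. The count was 21 in every fit that left out 1 library. PRDM14, which represses genes of differentiation, measured 138.3 and 227.6 CPM, against 0 to 16.5 CPM in treated libraries (median 1.40). Its log2 difference was 7.28 ± 0.64 (adjusted p = 4.81e-05, edgeR). ZSCAN10, a zinc-finger partner of POU5F1 and SOX2, measured 138.5 and 124.8 CPM, against 0 to 15.1 CPM (median 0.440). Both genes were above 100 CPM in each untreated library and had treated medians of 1.40 CPM or less.

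OTX2, a homeobox factor of the primed pluripotent state and of the forebrain, measured 106.7 and 107.6 CPM, against 0 to 6.43 CPM (median 0.633). ZIC2, a zinc-finger factor of the same state, measured 111.5 and 117.1 CPM, against 0.738 to 47.1 CPM (median 6.44), a log2 difference of 4.04 ± 0.52. Both genes lay above the treated range, OTX2 by the wider step. SALL1, ZFP42, MYCN and NR6A1 were called higher although at least 1 treated library reached the untreated range. ZFP42 (REX1) had only 8.64 and 7.40 CPM in untreated cells, and the highest treated library had 10.4 CPM. FOXO1 was the member not called, at 50.9 and 47.4 CPM against 10.3 to 62.6 CPM (log2 difference 0.16 ± 0.34, adjusted p = 0.741). The 2-group fit called 14 of the 22, and SOX2, SALL4, SALL1, ZFP42, MYCN and NR6A1 were among those it did not call.

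One sequence is shown here because NANOG carries, before its start, the paired site at which SOX2 and POU5F1 bind together. It gives the 250 bases before the NANOG start from RefSeq (GRCh38.p14, plus strand, chr12:7789152-7789401), with the match to the SOX-POU motif in capitals:
NANOG: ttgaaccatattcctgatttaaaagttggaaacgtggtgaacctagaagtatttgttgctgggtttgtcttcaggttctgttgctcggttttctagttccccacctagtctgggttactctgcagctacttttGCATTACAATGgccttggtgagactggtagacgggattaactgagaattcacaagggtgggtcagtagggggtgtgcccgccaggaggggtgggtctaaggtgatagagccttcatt
The match begins 117 bases before the start and reads GCATTACAATG on the printed strand, the motif itself lying on the other strand. RefSeq windows of 250 bases before to 50 after the start were held for 2052 of the genes above all treated libraries. The composite motif, a SOX site joined to the first bases of the octamer and searched on both strands, occurred in 3 of these (0.146%), in 1 of 1941 windows of genes below (0.0515%) and in 24 of 27305 windows in all (0.0879%). The octamer ATGCAAAT, to which POU factors bind and which can overlap the paired motif, occurred in 1.75% of the windows above, 1.03% of those below and 1.8% of all windows. Among the 13529 windows of genes tested here, from which both sets were drawn, the shares were 1.46% for the octamer and 0.037% (5 windows) for the paired motif. The octamer share of the genes above thus lay over that of tested genes and under that of all windows, and the paired motif had few matches in any set. RefSeq windows were matched by symbol for 156 of the 231 named genes.

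The NODAL and FGF signalling list had 12 of 19 members higher and 1 lower, with 8 above and 1 below all treated libraries and a median log2 difference of 1.62. GDF3, a ligand of the NODAL type, measured 382.0 and 283.4 CPM, against 0.123 to 45.2 CPM (median 1.22) after treatment, a log2 difference of 7.17 ± 0.30 (adjusted p = 1.83e-06, edgeR). FGF4, a ligand of early embryonic cells, measured 16.1 and 18.8 CPM, against 0 to 2.28 CPM. FGF2, the ligand that sustains human pluripotent cells in culture, measured 107.1 and 110.5 CPM, against 19.4 to 62.4 CPM (median 36.5). The ligands GDF3, FGF4, FGF2 and FGF19 all lay above the treated range.

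Among the receptors of this list, FGFR1 measured 503.3 and 588.0 CPM, against 122.9 to 480.0 CPM (median 246.7). FGFR4 differed by 3.55 ± 0.47 (adjusted p = 0.000336) with RA day 5 replicate 2 inside the untreated range. FGFR2 was not called at 1.23 ± 0.48 (adjusted p = 0.0638), and was called at 1.59 without BMP2 day 10 replicate 1 and 1.09 without replicate 2. The ligand NODAL itself was near the floor, at 0.446 and 1.34 CPM, and reached 18.4 CPM in RA day 5 replicate 1. The feedback inhibitor LEFTY2 was far apart in the untreated libraries, at 5.41 and 45.5 CPM, and reached 1066 CPM in RA day 5 replicate 1. LEFTY1 was at 2.01 and 12 CPM in untreated cells, and its call (2.80 ± 0.53) was lost without untreated replicate 2 (1.00) and turned to -0.90 in the 2-group fit and -0.05 in limma on log2(RPKM + 1). FURIN, a convertase that cuts precursor ligands, was the lower member (-0.86 ± 0.19, adjusted p = 0.00495), at -0.73 and uncalled without untreated replicate 1. The 2-group fit called 5 members higher, without FGF19, FGFR1 or FGFR4, and did not call FURIN lower.

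LIN28 and related oncofetal RNA-binding genes had 10 of 12 members higher, 0 lower and 7 above all treated libraries (median log2 difference 1.28). L1TD1, an RNA-binding partner of LIN28A, measured 966.3 and 1200 CPM, against 5.16 to 148.3 CPM (median 42.0), a log2 difference of 4.89 ± 0.49 (adjusted p = 8.69e-05, edgeR). TRIM71, a ubiquitin ligase that is itself a let-7 target, measured 515.6 and 530.4 CPM, against 2.87 to 250.4 CPM (median 93.8). LIN28B, the paralogue of LIN28A, changed less, at 215.2 and 212.2 CPM against 20.2 to 181.3 CPM (1.35 ± 0.20). All of these lay above the treated range, while HMGA2, a let-7 target and chromatin protein, lay inside it (-0.14 ± 0.17, adjusted p = 0.559). In the 2-group fit 2 of the 12 were called higher, and LIN28B and TRIM71 were not.

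Mature sequences of some members of the miR-302 and let-7 families are shown. These families have opposite roles in pluripotent cells, miR-302 promoting the state and let-7 opposing it. The sequences come from RefSeq, 5′ to 3′, with the seed (bases 2 to 8) in capitals:
hsa-miR-302a-3p: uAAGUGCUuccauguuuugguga
hsa-miR-302c-3p: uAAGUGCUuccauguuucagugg
hsa-miR-302d-3p: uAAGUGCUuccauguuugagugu
hsa-let-7d-5p: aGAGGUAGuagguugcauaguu
hsa-let-7i-5p: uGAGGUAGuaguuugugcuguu
The 3 miR-302 members share the seed AAGUGCU, and both let-7 members share GAGGUAG. The libraries were not made for small RNA, so the values are reads at the hairpin genes and not mature microRNA. MIR302A had 1.30 and 0.821 CPM in untreated cells (64 and 59 counts) and at most 0.11 CPM after treatment, with 7 of 12 treated libraries at 0. MIR302C had 0.548 and 0.891 CPM and at most 0.0149 CPM, and MIR302D had 1.24 and 0.918 CPM and at most 0.156 CPM. These 3 miR-302 hairpin genes, the only ones of the family examined, stood above every treated library. Of 6 let-7 hairpin genes, MIRLET7D (0.487 and 0.779 CPM against 0.21 to 0.912) and MIRLET7F1 (0.162 and 0.153 CPM against 0.0381 to 0.39) overlapped the treated libraries, and MIRLET7I stood above them (0.913 and 0.71 CPM against 0.063 to 0.671). The other 3 had too few reads to be tested: MIRLET7A1 and MIRLET7C had 0 counts in both untreated libraries and 5 and 9 counts over the treated ones, and MIRLET7G had 2 and 9 counts in untreated cells and 33 over the treated libraries.

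MIR302CHG, the host transcript of the miR-302 cluster, had 1.34 and 1.6 CPM in untreated cells and at most 0.228 CPM after treatment. It thus stood above every treated library, as did the miR-302 hairpin genes examined. The 250 bases before its start (RefSeq, GRCh38.p14, minus strand, chr4:112650052-112650301) are shown because they hold the octamer, in capitals, 202 bases before the start:
MIR302CHG: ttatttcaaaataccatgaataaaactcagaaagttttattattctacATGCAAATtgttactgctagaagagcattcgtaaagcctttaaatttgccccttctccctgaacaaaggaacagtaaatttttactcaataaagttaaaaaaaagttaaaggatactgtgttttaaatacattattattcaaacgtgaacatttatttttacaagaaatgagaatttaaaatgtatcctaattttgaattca

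Noncoding RNAs of pluripotent cells had 8 of 12 members higher and 1 lower, with 7 above and 1 below all treated libraries. Their median log2 difference was 5.58, or 4.98 with 3 counts put in for each group without a count. ESRG, a transcript driven by an endogenous retrovirus, measured 1508 and 1291 CPM, against 0.268 to 293.9 CPM (median 7.97). HHLA1, another retroviral-promoter locus, measured 180.6 and 137.7 CPM, against 0.0205 to 18.9 CPM. It was placed in this list although GENCODE v29 types it as protein-coding. LINC-ROR measured 31.6 and 26.5 CPM, against 0 to 2.64 CPM and 0 counts in 3 of the treated groups. All 3 lay above every treated library, and RA day 5 replicate 2 was the highest treated library for each. ESRG is wholly overlapped by another gene model. H19, the imprinted growth-restraining transcript, was the lower member and is described with the genes below.

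Genes of the stem cell surface and of epithelia were mixed: 10 of 22 were higher (45.5%), 1 was lower, and 5 stood above all treated libraries (median log2 difference 1.01). THY1 (CD90) measured 227.2 and 218.1 CPM, against 17.4 to 49.8 CPM (median 32.4), and CD9 measured 245.6 and 272.1 CPM, against 22.0 to 172.6 CPM (median 63.0). THY1 is wholly overlapped by another gene model. CLDN6, an embryonic claudin, measured 440.2 and 478.1 CPM, but BMP2 day 10 replicate 1 reached 408.9 CPM. Its difference of 2.40 ± 0.54 was not called without untreated replicate 2 (2.34). Without untreated replicate 1 the higher count was 5, without replicate 2 it was 7, and in the 2-group fit, which did not call CD9 or CLDN6, it was 3.

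Of 30 genes of telomerase and stem cell growth, 25 were higher, 0 were lower and 21 stood above all treated libraries (median log2 difference 2.03). USP44, a deubiquitinase of the mitotic checkpoint, measured 392.9 and 403.5 CPM, against 4.75 to 96.2 CPM (median 6.85). POLR3G, the pluripotency-linked subunit of RNA polymerase III, measured 136.2 and 167.8 CPM, against 2.40 to 18.3 CPM (median 3.33), a log2 difference of 5.17 ± 0.15 (adjusted p = 2.21e-07, edgeR). TERT, the catalytic subunit of telomerase, measured 10.97 and 12.4 CPM, against 0.042 to 7.45 CPM (median 0.918). All 3 genes lay above the treated range, TERT by the smallest step. Of the 30, 19 were called higher in the 2-group fit.

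Chromatin regulators had members called in both directions, as did all genes tested (22.1% higher and 20.3% lower). Among 9 genes of DNA methylation, 5 were higher (55.6%) and 3 lower (33.3%), with 3 above and 3 below all treated libraries. DNMT3B, the de novo methyltransferase of pluripotent cells, measured 1386 and 1533 CPM, against 4.001 to 240.8 CPM (median 38.2), a log2 difference of 5.69 ± 0.48 (adjusted p = 3.95e-05, edgeR). DNMT1, the maintenance enzyme, differed by 0.93 ± 0.15 although RA day 5 replicate 1 exceeded both untreated libraries, and DNMT3A by 0.70 ± 0.17. TET1, a dioxygenase that starts demethylation, was higher at 101.8 and 103.9 CPM against 14.4 to 80.6 CPM. Its paralogue TET2 was lower, at 14.97 and 13.4 CPM against 20.9 to 47.5 CPM (-1.39 ± 0.14, adjusted p = 9.08e-05). TET1 and TET2 thus lay on opposite sides of the treated range. DNMT3A was not called without untreated replicate 1 (0.72) or replicate 2 (0.69), and either omission left 3 higher members. In the 2-group fit 1 of the 9 was called higher, and DNMT1, DNMT3A and TET1 were not.

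Of 19 polycomb subunits, 8 were higher (42.1%) and 6 lower (31.6%), against 22.1% and 20.3% over all genes tested. All treated libraries were exceeded by 5 subunits and lay over 5 others (median log2 difference 0.33). PHC1, a subunit of the first polycomb complex, measured 860.5 and 817.4 CPM, against 68.1 to 214.9 CPM (median 111.1), and JARID2, a partner of the second, measured 208.0 and 208.5 CPM, against 34.2 to 93.1 CPM. The paralogue PHC2 was lower, at 41.4 and 45.8 CPM against 127.2 to 388.4 CPM (-2.19 ± 0.23, adjusted p = 0.000101, edgeR). RING1 and CBX8 were also lower, by -1.64 and -1.47. EZH2, the methyltransferase of the second complex, differed by 0.89 ± 0.22, and its call was lost without untreated replicate 1 (0.86) or replicate 2 (0.92). The number of higher subunits was 4 without untreated replicate 1, 3 without replicate 2 and 2 in the 2-group fit, which did not call EZH2.

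Lists of naive pluripotency and of germ cells moved less evenly. Naive genes had 5 of 11 higher (45.5%) and 2 lower (18.2%), against 22.1% and 20.3% over all genes tested. KLF4 was higher (2.53 ± 0.50), at 2.10 and uncalled without untreated replicate 2, and KLF5 was lower, at 2.05 and 3.17 CPM against 8.26 to 171.1 CPM. DPPA3, present in early embryos and germ cells, measured 12.8 and 9.43 CPM, against 0 to 1.85 CPM. Germ cell genes had 6 of 16 higher (37.5%) and 3 lower (18.8%), so the lower shares of both lists were near that over all genes. DAZL measured 2.41 and 1.54 CPM, against 0 to 0.142 CPM, and TEX15 measured 35.5 and 40.9 CPM, against 2.34 to 31.1 CPM. All of DPPA3, DAZL and TEX15 lay above the treated range, and KRT19, a keratin, was a lower member (-2.34 ± 0.34, adjusted p = 0.000579, edgeR). Without untreated replicate 1 the higher counts were 4 and 3, and without replicate 2 they were 3 and 4. They were 2 and 3 in the 2-group fit, where KLF4, KLF5 and KRT19 were not called.

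Proliferation and energy genes were mostly higher. Of 32 cell cycle genes, 25 were higher and 2 lower, with 14 above and 2 below all treated libraries (median log2 difference 1.36). CDC20, the activator of the anaphase-promoting complex, measured 342.5 and 363.3 CPM, against 24.3 to 281.2 CPM (median 118.0), and CDC25A, a phosphatase that activates cyclin-dependent kinases, measured 191.8 and 209.7 CPM, against 16.2 to 149.2 CPM. CDK6, a kinase of the G1 phase, was lower, at 59.7 and 61.9 CPM against 215.1 to 616.3 CPM (-2.58 ± 0.37, adjusted p = 0.000513, edgeR). The other lower member was CCND3, a cyclin that binds CDK6 (-1.20 ± 0.38), which was not called without untreated replicate 1 (-1.26) or replicate 2 (-1.15). The 2-group fit called 1 of the 32 higher and none of CDC20, CDC25A and CCND3.

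All 7 inhibitors of cyclin-dependent kinases were called lower in untreated cells and stood below every treated library, with a median log2 difference of -3.10. CDKN2B (p15) measured 0.406 and 1.28 CPM, against 1.36, 128.8 and 908.7 CPM as the lowest, median and highest treated values. CDKN1A (p21) measured 7.46 and 10.1 CPM, against 10.6, 50.2 and 495.7 CPM. CDKN2A (p16 and p14ARF) measured 0.406 and 0.946 CPM, against 1.11, 6.80 and 157.9 CPM. The groups nearly touched for these 3 genes: RA day 5 replicate 2 was the lowest treated library for CDKN2A and CDKN2B, and BMP2 day 5 replicate 2 for CDKN1A. CDKN2C (p18) was separated more, at 0.122 and 0.139 CPM against 0.846 to 6.25 CPM (-4.14 ± 0.52, adjusted p = 0.000242, edgeR). Without untreated replicate 1 or replicate 2, 3 of the 7 were called, and 3 in the 2-group fit, CDKN1A and CDKN2A not among them. CDKN1A (-3.10 ± 1.04, adjusted p = 0.0355) lost its call without untreated replicate 1 (-2.90) or 2 (-3.34), RA day 5 replicate 1 (-3.02), RA day 21 replicate 2 (-3.06), BMP2 day 5 replicate 1 (-3.04) or BMP2 day 21 replicate 2 (-3.05). CDKN2A lost it without untreated replicate 1 (-4.00) or 2 (-5.22). The CDKN2A and CDKN2B gene models are wholly overlapped by other genes.

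Of 20 glycolysis enzymes and transporters, 14 were higher and 1 lower, with 12 above and 1 below all treated libraries (median log2 difference 0.85). Their summed level was 20810 and 21690 CPM in untreated cells and 7452 to 17520 CPM (median 12340) after treatment. HK1 and HK2, the hexokinases of the first step, measured 375.2 and 332.1 CPM and 211.9 and 197.2 CPM, against at most 172.8 and 119.3 CPM. LDHA, which makes lactate, measured 398.0 and 402.5 CPM, against 92.8 to 286.4 CPM. PFKM, the muscle-type phosphofructokinase, was lower (-0.47 ± 0.13), and was not called without untreated replicate 1 (-0.55) or replicate 2 (-0.39). Only 7 were called higher in the 2-group fit.

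Nucleotide excision repair, the pathway the study addresses, removes bulky lesions such as those made by ultraviolet light. Of 51 genes, 27 were higher in untreated cells and 6 lower, with 15 above and 3 below all treated libraries and a median log2 difference of 0.39. The higher members with the largest differences were POLE, POLE2 and RFC3, which act in gap-filling synthesis and in replication, and TCEA1, an elongation factor. TCEA1 measured 447.0 and 629.9 CPM, against 143.5 to 364.9 CPM (median 204.4), and RFC3 measured 124.5 and 116.1 CPM, against 16.9 to 104.5 CPM. ERCC1 and ERCC4, the nuclease that cuts on the 5′ side of the lesion, were lower. ERCC1 measured 19.4 and 17.1 CPM, against 27.1 to 39.7 CPM (-0.83 ± 0.15, adjusted p = 0.00147, edgeR), and ERCC4 17.4 and 16.0 CPM, against 22.7 to 40.9 CPM. XPC, which recognises lesions, was lower by -0.55 ± 0.12 with overlapping libraries. ERCC4 was not called without untreated replicate 2 (-0.72), nor XPC without replicate 1 (-0.50). The higher count was 17 without untreated replicate 1, 12 without replicate 2 and 3 in the 2-group fit, which did not call POLE, POLE2, RFC3 or XPC.

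**Figure D2:**
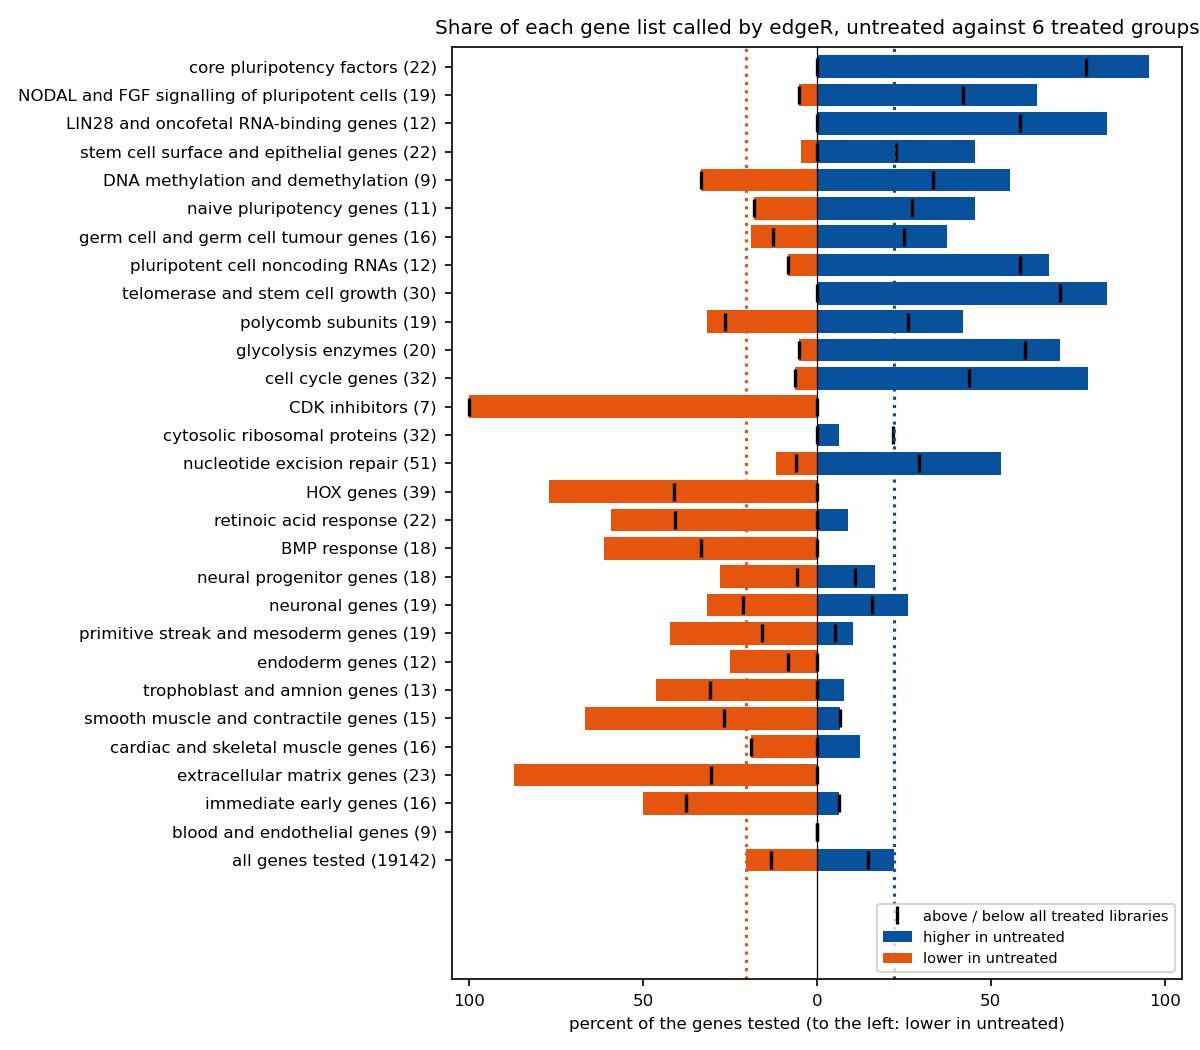
Bars give the percent of each list (number tested in brackets) called higher (blue, right) or lower (orange, left) in untreated cells by edgeR, black ticks the percent above or below all 12 treated libraries, and dotted lines the percent called over all genes. The core pluripotency bar reaches 95.5% to the right and the bar of cyclin-dependent kinase (CDK) inhibitors 100% to the left, against 22.1% and 20.3% over all genes.

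The most abundant genes were ranked on CPM divided by the merged exon length and rescaled to a fixed sum per library, called the exon-scaled level. EEF1A1, a translation elongation factor, ranked first at 10050 and 8913, and GAPDH, a glycolytic enzyme, second at 8192 and 7528. LDHB, YBX1, RPS2, HSP90AB1, ACTB and PRDX1 followed. EEF1A1 did not differ from treated cells (0.06 ± 0.22, adjusted p = 0.877, edgeR) and GAPDH was higher (0.82 ± 0.13, adjusted p = 0.000764). Among the 15 most abundant genes, GAPDH, LDHB, YBX1, HSP90AB1, PRDX1, CD24P4, RPSA, TPI1 and ATP5F1B were called higher. CD24P4 is a processed pseudogene whose reads cannot be told apart from those of CD24. YBX1 and RPSA lost their calls without untreated replicate 1 (0.57 and 0.77) or replicate 2 (0.52 and 0.77), and GAPDH, LDHB, YBX1, PRDX1, RPSA and TPI1 lost theirs in the 2-group fit.

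LIN28A ranked 16 on this scale, at 2829 and 3276, beside heat shock proteins and ribosomal proteins. In treated libraries its exon-scaled level ran from 2.26 to 1894, and its rank fell as low as 13857. POU5F1 ranked 60, DNMT3B 69, L1TD1 78 and GDF3 83. These ranks depend on the scale: by CPM and by the authors' RPKM, LIN28A ranked 13 and 64, POU5F1 90 and 173, DNMT3B 46 and 347, and GDF3 526 and 192. Of the 100 most abundant genes, 54 stood above all treated libraries by CPM and 55 were called higher, with 3 lower. Some of the 54 overlapped on the exon-scaled level, such as YBX1 (5720 and 5686 against a highest treated 5823). Over all genes tested, 14.7% stood above, 22.1% were called higher and 20.3% lower. In the fifth of genes with the highest mean CPM over all libraries, 24.3% stood above. FTL, the ferritin light chain, was the single one below all treated libraries by CPM. Its exon-scaled levels were 2853 and 2430 against 3832 to 8907. ACTG1, an actin, lay below on the exon-scaled level as well (2244 and 2346 against 2569 to 5782) but overlapped the treated libraries by CPM. The 100 genes made up 21.7% and 21.9% of the summed exon-scaled level in untreated cells and 11.6% to 19.8% (median 16.8%) in treated ones. They were chosen for their level in untreated cells, so their counts above or higher, and a lower share elsewhere, follow in part from the choice. Of 32 cytosolic ribosomal proteins, 7 (21.9%) stood above all treated libraries and 0 below, with a median log2 difference of 0.35. By contrast with the 100 most abundant genes, 2 of the 32 were called higher and 0 lower. In edgeR that number was 0 without untreated replicate 1 or replicate 2, 0 in the 2-group fit, 4 in DESeq2 and 14 without BMP2 day 10 replicate 1.

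**Figure D3:**
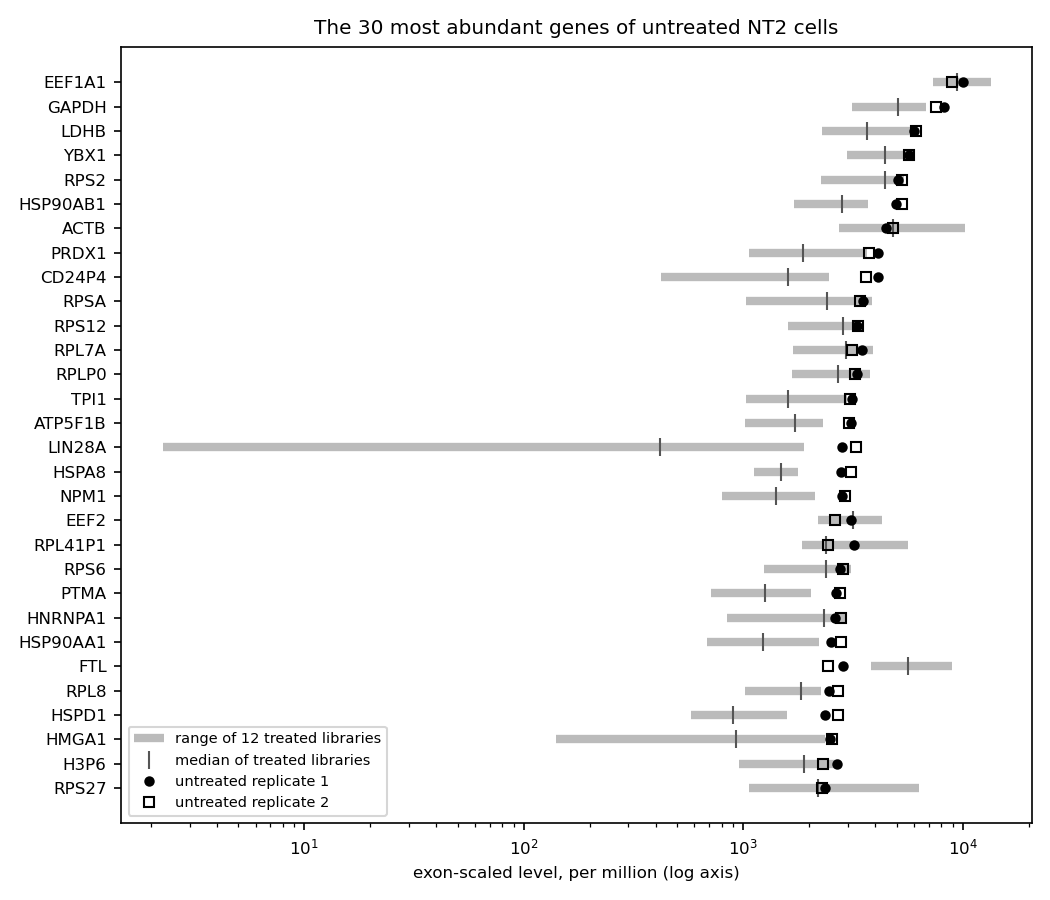
The 30 genes with the highest mean exon-scaled level in untreated cells, on a log axis, with both untreated libraries (circle, square), the range of the 12 treated libraries (grey bar) and their median (tick). LIN28A has by far the widest treated range, 2.26 to 1894, and FTL lies below its treated range.

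Genes with the widest empty interval between the untreated libraries and every treated one were led by TDGF1, FOXD3, MYH2 and OTX2 on the upper side. They were chosen by this interval, so p-values printed above or below for some of them as markers or list members are not independent support for it. FOXD3, a forkhead repressor of pluripotent and neural crest cells, measured 12.4 and 11.7 CPM, against at most 0.285 CPM, and MYH2, a myosin heavy chain, 21.2 and 17.7 CPM, against at most 0.672 CPM. The MYH2 model is wholly overlapped by another gene, so its reads cannot be told apart from those of that gene. LHFPL4 (12.5 and 11.97 CPM, at most 0.761 after treatment), GLIPR1L1 (8.74 and 10.8, at most 0.452) and VENTX (21.7 and 22.6, at most 3.09) were also among the 20 widest. NANOGP8, a retrocopy of NANOG with nearly the same sequence (23.1 and 31.2 CPM, at most 1.504), cannot be separated from NANOG by these counts. The interval was at least 1 on the log2 scale, with 0.5 CPM added, for 217 of the 2813 genes above, at least 2 for 52 and at least 3 for 14, and its median was 0.24. Genes at the edge were VTA1, VDAC2 and MGST1 just inside (VTA1 at 83.6 and 85.7 CPM against a highest treated 83.6) and BAZ1B, DPH7 and USP36 just outside (BAZ1B at 309.4 and 323.0 CPM against 309.6).

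On the lower side the widest interval was that of H19, at 6.65 and 8.06 CPM in untreated cells against 664.0, 4229 and 15660 CPM as the lowest, median and highest treated values. Even the lowest treated library, BMP2 day 5 replicate 2, lay far above both untreated libraries. IGFBP5, a binding protein of insulin-like growth factors, measured 2.07 and 3.16 CPM, against 114.8 to 834.9 CPM (median 306.1). ZNF503 (0.284 and 0.362 CPM, against 25.6 to 82.1), NR2F2 (0.284 and 0.390, against 22.4 to 176.5) and MEIS1 (0.284 and 0.584, against 23.3 to 210.9) encode transcription factors. LMOD1, a smooth muscle actin nucleator, measured 0.122 and 0.0278 CPM, against 11.6 to 40.2 CPM, and WLS, which carries WNT ligands to the cell surface, 27.3 and 27.3 CPM, against 296.6 to 1420 CPM. All of these were present in every treated library, RA and BMP2 alike. The interval was at least 1 for 289 of the 2509 genes below, at least 2 for 61 and at least 3 for 16, with a median of 0.28. MMP14, PCYOX1 and RASSF1 lay just inside (PCYOX1 at 107.4 and 117.8 CPM against a lowest treated 117.8), and ZMAT3, BORCS6 and LONP2 just outside (ZMAT3 at 23.9 and 24.7 CPM against 24.7).

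**Figure D4:**
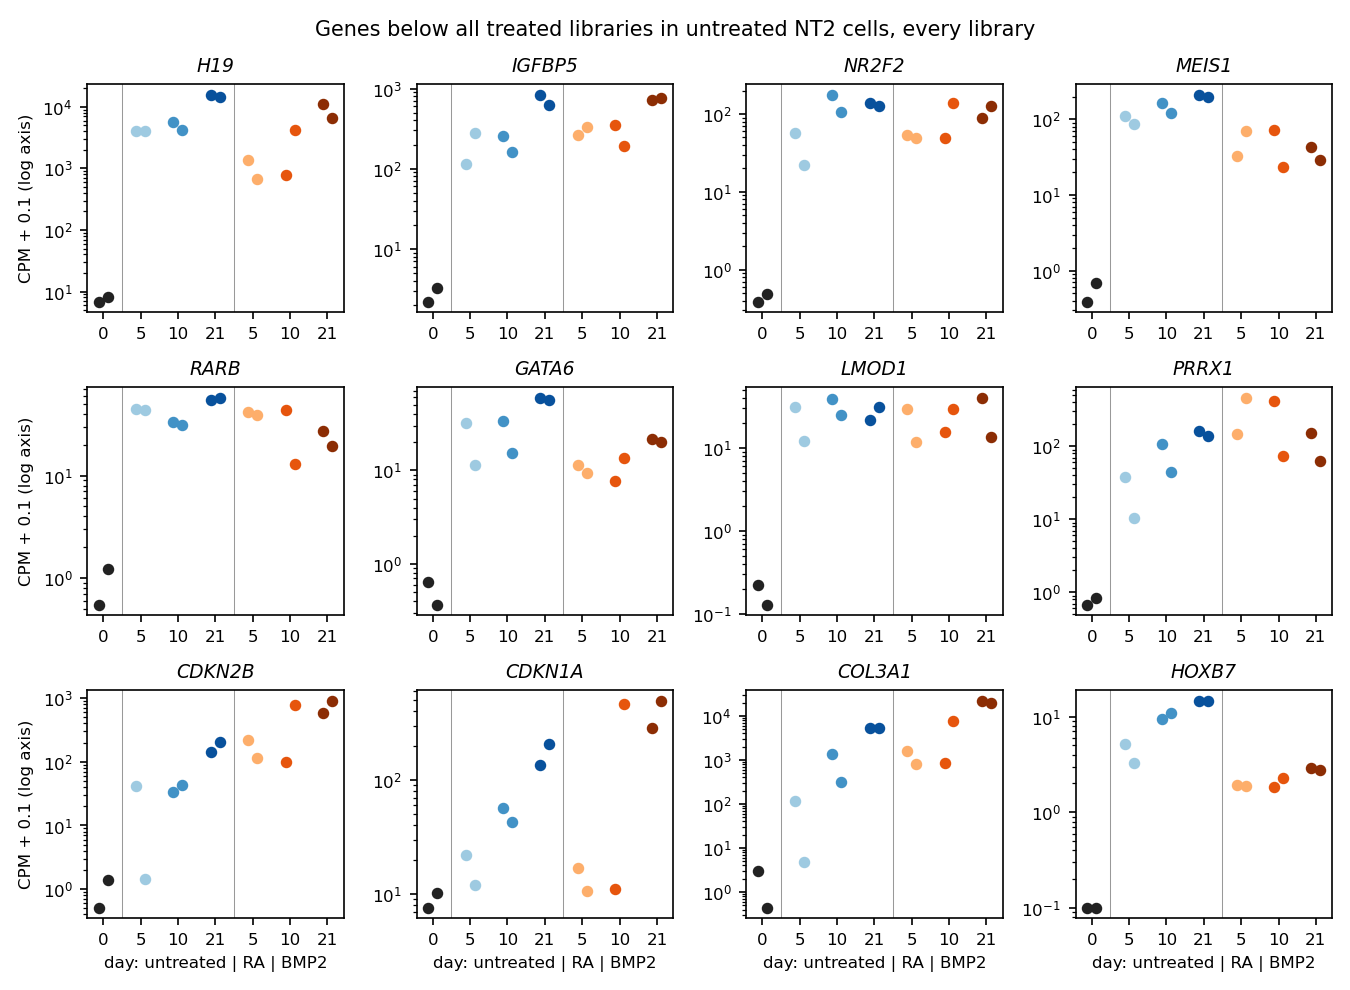
Each panel shows one gene in all 14 libraries, as CPM plus 0.1 on a log axis, with the day on the horizontal axis and one point per library (black untreated, blue RA, orange BMP2). Both untreated points lie below every treated point in all 12 panels, with H19 at 6.65 and 8.06 CPM against at least 664.0 CPM and CDKN1A separated by the smallest step.

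HOX genes, which set position along the body axis, were nearly silent in untreated cells. Of 39 tested, 30 were lower, 0 were higher, and 16 stood below all treated libraries. The list summed to 14.9 and 20.7 CPM in untreated libraries and to 105.2 to 1405 CPM (median 721.7) in treated ones, and 18 of its genes had 0 counts in both untreated libraries. With 3 counts put in for each group without a count, the median log2 difference was -5.63. HOXB7 had 0 counts in both untreated libraries and 1.74 to 14.5 CPM (median 2.99) in treated ones, at least 7.42 lower in untreated cells on the log2 scale. HOXA3 had 0 counts, against 0.0571 to 175.0 CPM (median 39.1). HOXA3 was highest in RA day 21 replicate 1 and lowest in BMP2 day 5 replicate 1, so its treated levels spread far more than those of HOXB7. Other gene models cover 96.6% of HOXA3 and 51.8% of HOXB7. Of the 39, 9 were called lower in the 2-group fit, HOXA3 not among them.

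Of 22 genes of the retinoic acid response, 13 were lower, 2 higher and 9 below all treated libraries (median log2 difference -1.77). RARB, the receptor that RA itself induces, measured 0.446 and 1.13 CPM, against 13.0 to 57.3 CPM (median 40.4), a log2 difference of -5.47 ± 0.56 (adjusted p = 9.39e-05, edgeR). Its BMP2 libraries were no exception, the lowest being BMP2 day 10 replicate 2 at 13.0 CPM. CYP26B1, which degrades RA, measured 0.203 and 0.223 CPM, against 0.447 to 933.8 CPM (median 31.0). CRABP1, which binds RA in the cytosol, was higher, at 61.4 and 66.3 CPM against 3.64 to 173.7 CPM (1.73 ± 0.34), with RA day 5 replicate 2 above the untreated libraries. PBX3, the other higher member (0.54 ± 0.15), was not called without untreated replicate 2 (0.42). The 2-group fit called 5 lower, and CYP26B1, CRABP1 and PBX3 were not called.

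Of 18 genes of the BMP response, 11 were lower, 0 higher and 6 below all treated libraries (median log2 difference -2.02). MSX1, a homeobox target of BMP signalling, measured 0.284 and 0.348 CPM, against 4.89 to 234.5 CPM (median 42.4). TBX3 measured 1.06 and 1.98 CPM, against 11.01 to 357.9 CPM (median 54.5). The highest treated library for both was BMP2 day 5 replicate 2 and the lowest RA day 5 replicate 2. DLX5 measured 0.325 and 0.445 CPM, against 2.54 to 91.7 CPM (-5.25 ± 1.09, adjusted p = 0.00361, edgeR). The 2-group fit called 5 lower.

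Extracellular matrix genes had 20 of 23 lower, 0 higher and 7 below all treated libraries (median log2 difference -2.23). Their sum was 2498 and 2982 CPM in untreated cells and 2547 to 74900 CPM (median 13980) in treated ones. COL3A1, a fibrillar collagen, measured 2.92 and 0.334 CPM, against 4.73, 1503 and 21950 CPM as the lowest, median and highest treated values, and LUM, a proteoglycan of collagen fibrils, 0.365 and 0.278 CPM, against 0.496, 97.5 and 4799 CPM. COL5A2 measured 15.5 and 8.41 CPM, against 42.6 to 2682 CPM (median 683.4). RA day 5 replicate 2 was the lowest treated library for all 3, and for COL3A1 it lay close to the untreated ones. The lower count was 13 without untreated replicate 1, 10 without replicate 2 and 3 in the 2-group fit, where LUM was not called.

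Smooth muscle and contractile genes had 10 of 15 lower and 1 higher, with 4 below all treated libraries (median log2 difference -1.66). ACTA2, the smooth muscle actin, measured 0.750 and 1.00 CPM, against 1.88 to 431.1 CPM (median 50.9), and MYL9, a myosin light chain, 11.2 and 17.2 CPM, against 34.1 to 414.3 CPM. DES, the intermediate filament of muscle, was the higher member, at 1.95 and 2.31 CPM against 0.0808 to 1.71 CPM (1.74 ± 0.35). ACTA2 and MYL9 were lowest among treated libraries in RA day 5 replicate 2 and highest in BMP2 day 5 replicate 1. The lower count was 5 without untreated replicate 1, 6 without replicate 2 and 2 in the 2-group fit, where ACTA2 and DES were not called.

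Lists of other lineages were read as markers of cells that an untreated culture could hold. The myogenic regulators (MYOD1 at 0.0811 and 0.0557 CPM, MYOG at 0.0406 and 0 CPM) and markers of endoderm (SOX17 and FOXA2 at 0, AFP at 0 and 0.0557 CPM) were at or near 0. Other muscle genes were not: MYH6, a cardiac myosin, had 12.9 and 13.3 CPM, and MYH7, its slow-muscle relative, 5.46 and 29.5 CPM. SOX1, a neural progenitor factor, had 0.243 and 0.0278 CPM, and PAX6 2.50 and 3.16 CPM. Trophoblast and amnion markers differed. CGA, a placental hormone subunit, had 0 counts in untreated cells and at most 1.83 CPM after treatment, and CDX2 had 0.162 and 0.0557 CPM. GATA3 had 4.60 and 4.06 CPM and KRT7 8.70 and 10.2 CPM in untreated cells. Neuronal genes ran from near 0 to moderate levels, with STMN2 at 0.122 and 0.251 CPM, MAP2 at 30.9 and 33.4 CPM and DCX at 21.1 and 5.26 CPM. Of 19 neuronal genes, 5 were higher (26.3%) and 6 lower (31.6%), against 22.1% and 20.3% over all genes tested. The list had 3 members above and 4 below all treated libraries (median log2 difference -0.35), and 3 were lower in the 2-group fit. VSNL1, a calcium sensor of neurons placed here in the stem cell growth list, measured 47.6 and 25.1 CPM, against 0.495 to 3.76 CPM. RBFOX3 (NeuN), a splicing factor of mature neurons, was higher in untreated cells, at 12.8 and 9.62 CPM against 0.0894 to 2.70 CPM (3.76 ± 0.42, adjusted p = 0.000146, edgeR), and SYP, a synaptic vesicle protein, at 14.2 and 7.75 CPM against 1.12 to 6.77 CPM. SNAP25 and NCAM1 were lower, SNAP25 at 1.10 and 0.751 CPM against 2.55 to 32.5 CPM.

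Other lineage lists had a smaller share of higher members than the 22.1% over all genes tested, of which 20.3% were lower. For neural progenitor genes both shares were near those over all genes. The shares called lower among endoderm genes and among cardiac and skeletal muscle genes were also near 20.3%. Those of mesoderm, of trophoblast and amnion, and of immediate early genes were larger. Primitive streak and mesoderm genes had 2 of 19 higher and 8 lower, endoderm genes 0 of 12 higher and 3 lower, and trophoblast and amnion genes 1 of 13 higher and 6 lower. EOMES, a T-box factor of the primitive streak, measured 2.64 and 2.45 CPM, against 0 to 0.756 CPM. GATA6, an endoderm factor, measured 0.548 and 0.264 CPM, against 7.61 to 59.4 CPM (-5.66 ± 0.62, adjusted p = 0.000125, edgeR), and ISL1, a factor of amnion, heart and motor neurons, 0.122 and 0.195 CPM, against 0.389 to 221.4 CPM. GATA6 and ISL1 lay below every treated library and EOMES above. Neural progenitor genes had 3 of 18 higher and 5 lower, cardiac and skeletal muscle genes 2 of 16 higher and 3 lower, and immediate early genes 1 of 16 higher and 8 lower. The higher muscle genes were MYH7 (4.49 ± 1.01) and CKM (4.20 ± 1.23), a creatine kinase at 0.203 and 2.11 CPM, and both lost their call without untreated replicate 2 (2.81 and 1.68). Other higher calls that a single library ended were KDR (0.99 ± 0.35; 0.29 without untreated replicate 1, and lost in 7 further omissions at 0.90 to 1.03), TFAP2C (2.03 ± 0.57; 2.16 and 1.88 without untreated replicate 1 and 2) and SOX3 (1.19 ± 0.43; 0.22 without untreated replicate 1, and lost in 8 further omissions at 1.08 to 1.22). Blood and endothelial genes summed to 11.2 and 29.2 CPM, against 18.7 to 149.6 CPM after treatment, most of it from RUNX1 (6.79 and 20.3 CPM). Their defining markers PTPRC (0.122 and 0.626 CPM) and CDH5 (0.406 and 0.306 CPM) were below 1 CPM. Without untreated replicate 1 the lower counts were 4 for mesoderm, 1 for endoderm, 2 for neural progenitor and 4 for immediate early genes. Without replicate 2 they were 4, 2, 3 and 4. Endoderm and cardiac and skeletal muscle each had 5 lower members without BMP2 day 10 replicate 1. DESeq2 called 8 endoderm, 10 trophoblast and amnion, and 7 cardiac and skeletal muscle genes lower. In the 2-group fit the lower counts were 2 for mesoderm, 1 for endoderm, 3 for trophoblast and amnion, 1 for neural progenitor, 1 for cardiac and skeletal muscle and 3 for immediate early genes, and EOMES and ISL1 were not called.

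Treated groups differed in how far they lay from the untreated state. For 1662 of the 2813 genes above (59.1%), the single treated library nearest to untreated cells belonged to RA day 5. The same held for 1279 of the 2509 genes below (51%). Distance was also taken as the log2 ratio of a treated group's mean CPM to the untreated mean, with 0.5 CPM added to both. Its sign is opposite to that of the log2 differences given so far. In the RA groups, the median of this ratio over the genes above was -0.53 at day 5, -0.81 at day 10 and -1.16 at day 21. In the BMP2 groups it was -0.84, -0.95 and -1.15. The genes below gave 0.72, 1.06 and 1.45 for RA and 1.10, 1.28 and 1.5 for BMP2. The choice of the genes fixes the sign of these medians, and their sizes are a description. All groups share the untreated libraries, and the BMP2 day 10 value averages 2 unlike libraries.

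**Figure D5:**
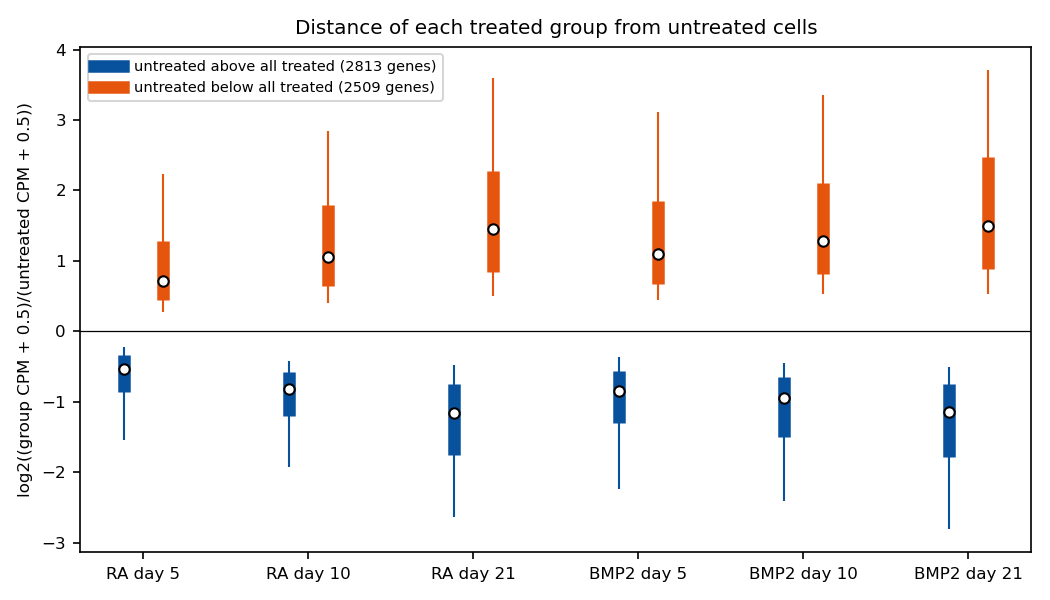
For each treated group the plot gives the log2 ratio to untreated cells (with 0.5 CPM added) of the genes above (blue) and below (orange) all treated libraries: median (circle), middle 50% (thick bar) and 10th to 90th percentile (thin line). The RA day 5 medians, -0.53 and 0.72, are the nearest to 0, and those of both day 21 groups are the farthest.

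Several families of genes, chosen after their values were seen, leaned to one side, some more than others. Of 23 nucleoporins, which form the nuclear pore, 21 were higher and 17 stood above all treated libraries. Of 8 subunits of the CCT chaperonin, which folds actin and tubulin, 7 were higher and 7 above. Mitochondrial ribosomal proteins had 44 of 75 higher and 2 lower, and proteasome subunits 32 of 47 higher and 1 lower. On the other side, 10 of 15 intraflagellar transport genes, which build cilia, were lower and 0 higher. Of 35 vacuolar sorting genes 17 were lower and 2 higher, of 51 protocadherins 21 and 0, and of 43 collagens 25 and 1. Zinc-finger genes with ZNF symbols had 144 of 483 higher (29.8%) and 72 lower (14.9%), closer to the 22.1% and 20.3% over all genes.

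By gene type, 191 of 935 processed pseudogenes (20.4%) stood above all treated libraries and 12 (1.28%) below. Reads of such retrocopies cannot be told apart from those of their parent genes. The shares of protein-coding genes were 15.3% above and 14.3% below, and those of long intergenic noncoding RNAs 5.01% and 12.8%. The untreated libraries themselves agreed closely: of 10985 genes with a mean of at least 5 CPM, 153 (1.39%) differed by more than 2-fold between them. Higher in replicate 2 were EMP1 (1.05 and 12.7 CPM), CAV1 (7.42 and 42.4 CPM) and ANXA3 (7.08 and 33.2 CPM), together with LEFTY1 and LEFTY2. Higher in replicate 1 were HMCN1 (49.4 and 11.7 CPM), NLGN3 (17.3 and 4.11 CPM) and LMO3 (40.4 and 12.2 CPM).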

How the data were processed

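RNA sequencing of 14 libraries of NT2 cells was analysed from 2 tables of 25952 Ensembl genes. The deposited count table holds whole-number read counts made by the authors. The second deposited table holds RPKM, counts scaled by the authors to gene length and library size, and served in alternatives alone: its implied gene length was the whole gene span within 1% for 88.57% of 8821 genes. The submitters' processing notes name STAR, featureCounts, DESeq2 and hg19, without versions or roles. Strand handling and whether introns were counted are not given in the sources used here. Even numbers made up 65.98% to 73.5% of counts from 1 to 19, and no source states whether each read of a fragment was counted. Symbols came from a gene name table for 25214 identifiers and from GENCODE v29 for 58. Exon lengths came from GENCODE v29, which is on a later build than hg19.

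Counts were fitted with edgeR 4.0.16 (R 4.3.3) with TMM factors, filterByExpr (minimum count 10, leaving 19142 genes) and a mean for each of 7 groups, and untreated cells were contrasted with the mean of the 6 treated groups. Residual degrees of freedom were 7, the prior added 3.08, and the biological coefficient of variation was 0.368. P-values were adjusted by Benjamini-Hochberg over all genes tested, with a threshold of 0.05, and the SE is the difference over the square root of F. A group without a count was given 3 counts over the group where a bound was computed. In simulated data for this contrast (18584 genes run, 50 changed per fold), none of the 1.5-fold changes was found, while 32% of 2-fold, 78% of 4-fold and 90% of 8-fold changes were, beside 2 false calls.

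The members and the 28 gene lists were chosen with earlier results of these data known. Named genes were markers, the 15 most abundant, the 20 with the widest interval on each side at 5 CPM or more, the genes at each edge, whole lists for 4 lists and up to 4 genes a direction for the others. TERT, FTL, MIR302CHG, the microRNA hairpin genes, the 15 families and the genes named for a difference between the untreated libraries were chosen after their values were seen. Alternatives were RLE factors, other filters, a replicate block, treated libraries as 1 group, DESeq2 1.42.0, limma 3.58.1 on log2(RPKM + 1) and log2(RPKM + 0.1), and leaving out each library. The fit without both BMP2 day 10 libraries and the counts of lists under each alternative were added after the data were seen. Figures and tables used Python 3.11.15, pandas 2.3.3 and matplotlib 3.10.9. Some named genes are not reported here.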

Additional observations from a re-analysis of the deposited data

How the results depend on the processing

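Leaving out each library in turn gave 2272 to 4972 genes higher and 1861 to 4632 lower in untreated cells, with the fewest when an untreated library was left out: 2680 and 2163 without replicate 1, and 2272 and 1861 without replicate 2. The single untreated library is then assumed to vary like the other groups. The counts above and below all treated libraries ran from 2828 to 3849 and from 2531 to 3410, growing by construction since fewer libraries are compared. In the 2-group fit 1430 and 1391 genes were called, and 95 of the 199 named genes called lost their call. The same fit reversed LEFTY1 (-0.90), SOX3 (-0.48) and KDR (-0.41), and limma on log2(RPKM + 1) reversed LEFTY1 (-0.05). The cause was not tested. Leaving out libraries ended at least 1 call for 49 of the 199, and the other alternatives together for 13. Replicate numbers, taken from the titles (the descriptions number RA day 21 as 3 and 4), did not pair the libraries (correlation of same-numbered deviations -0.342 to 0.146, median 0.00388, over 21 pairs of groups), and a fit with the replicate block called 4084 and 3757 genes. DESeq2 called 4573 and 4709, and RLE factors 4431 and 3759. Scaling to total counts left 2380 genes above and 2809 below. Of the 15 most abundant genes, 8 were shared with a ranking by CPM and 9 with one by the authors' RPKM, which use no exon length or the whole span. Genes near the floor of a few counts, such as the 18 HOX genes without one in untreated cells, have differences that depth limits to bounds.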
